A study of Oryza sativa with 6 samples.

Results

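WRKY, NAC and AP2 proteins are 3 families of plant transcription factors, and their probes were taken here from the descriptions printed on a rice oligonucleotide array. A probe was included when its description held WRKY, the word NAC or NAM, NAC domain, AP2, EREBP, ethylene responsive element binding, ethylene response factor or DREB. The words matched 96 of 21495 rice probes. Of these, 85 named a transcription factor, with 29 WRKY probes, 23 NAC probes and 33 probes of the AP2 and EREBP family, and 11 named another protein whose full description only contains the letters AP2. A description is the name of the best matching mRNA, usually of Arabidopsis, tobacco, tomato or petunia, so a name such as WRKY54 below says which known gene the rice cDNA resembled and not that it is the rice counterpart. The 85 probes carried 56 different descriptions, and 18 of these were shared by several probes, 47 probes in all.

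The array samples were roots of 2 rice lines. One was the japonica cultivar Nipponbare. The other, 6-4, was near-isogenic to it and held inserts of the indica cultivar Kasalath. Both were grown in 12 L pots of Andosol, a volcanic soil, with a high phosphorus content (control) or without phosphorus (P-deficient), and RNA was taken from 1.6 g of root. Each condition had 3 biological replicates of each line. One Nipponbare and one 6-4 sample of the same condition shared each of the 6 arrays of 2 colours, and the dyes were swapped within each condition: Cy5 marked 6-4 on replicate 2 of the control and on replicates 1 and 3 of the P-deficient arrays, and Cy3 marked it elsewhere.

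WRKY proteins bind W-box elements in promoters and are known mainly from defence, senescence and nutrient responses. NAC proteins, named after petunia NAM and Arabidopsis ATAF and CUC genes, act in meristem boundaries, wall formation and drought responses. The AP2 and EREBP family holds the ethylene response factors, the DREB factors of drought and cold, and the AP2 proteins of flower and embryo development, and in roots several of its members respond to a shortage of minerals.

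Of the 85 transcription factor probes, 80 were kept, meaning that in 1 or more of the 4 groups of line and condition all 3 arrays gave a signal well above background. These were 28 WRKY, 22 NAC and 30 AP2 and EREBP probes, beside 20531 probes of the whole array, and 65 of the 80 were well above background in all 12 channels. The 5 probes left out were matched to WRKY12 (AK072906), a NAM/CUC2-like protein (AK070416), AP2DCP (AK065344), RAP2.6 (AK107852) and ORCA1 (AK108143). None of the 80 was saturated in any channel. Of 9 probes of the root-specific proteins RCc2 and RCc3, 8 were well above background in all 12 channels, and their mean levels lay anywhere from the 8.89th to the 99.7th percentile of all probes. These markers were not constant with phosphorus, since 3 of them fell without it, AK062911 with a P response of -1.84 (limma adjusted p = 0.00181), AK063090 with -0.86 (adjusted p = 0.0449) and AK063684 with -0.63 (adjusted p = 0.0491), and their part in the results below was not tested. A wider root list took probes described as RCc2, RCc3, root-specific, nitrate transporter or peroxidase, so it is not confined to root-specific proteins. A shoot list took the small subunit of ribulose bisphosphate carboxylase, chlorophyll a/b, photosystem and plastocyanin. The summed level of the 122 root list probes was 18.48 to 18.5 on the log2 scale on the control arrays and 18.25 to 18.49 on the P-deficient arrays. That of the 34 shoot list probes was 14.44 to 14.81 and 14.52 to 14.64. Control replicate 2 and P-deficient replicate 2 stood apart: their negative control spots had Cy3 signals of 5.06 and 4.8 times the local background, against 1.19 to 2.86 times on the other 4 arrays. These same 2 arrays hold the less frequent dye order of their condition, so results that rest on them are given below with and without them.

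The first comparison asked which of these factors had other root levels when phosphorus was withheld. Levels are log2 channel intensities after normalization, averaged over both lines of an array, and the P response is P-deficient minus control, tested with limma over all kept probes with Benjamini-Hochberg adjustment. Of the 80 transcription factor probes, 1 rose and 1 fell at an adjusted p under 0.05, both of the AP2 and EREBP family. This is 2.5% of the probes, against 1.51% of all probes tested, of which 1.04% rose and 0.468% fell. No WRKY and no NAC probe passed. At an unadjusted limma p under 0.05 were 3 of 28 WRKY and 4 of 22 NAC probes, against 2255 of 20531 over all probes. Because roots were measured in bulk, fewer cells of a type and less RNA per cell cannot be told apart in any of these values.

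The probe matched to RAP2.11 (AK109606) had the highest P response of the 80. RAP2.11 is an ethylene response factor that in Arabidopsis acts in the response to low potassium. In Nipponbare its level was 9.64, 9.59 and 10.60 in the 3 control samples and 11.73, 11.13 and 12.12 in the 3 P-deficient samples. In 6-4 it was 8.96, 8.41 and 9.07 in the control samples and 10.57, 11.08 and 11.91 without phosphorus. Every P-deficient sample of a line lay above every control sample of that line, and the groups did not overlap. The mean level over both lines was 9.38 ± 0.42 (SD, n = 3 arrays) in the control and 11.42 ± 0.51 (SD, n = 3 arrays) without phosphorus. RAP2.11 rose by 2.05 ± 0.29 (SE) on the log2 scale, 4.13-fold, with a limma adjusted p of 0.0112.

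The rise of RAP2.11 passed the threshold in 6-4 but not in Nipponbare when each line was tested alone without a block. In 6-4 the P response was 2.44 ± 0.44 (SE, limma adjusted p = 0.017), and in Nipponbare 1.66 ± 0.44 (SE, limma adjusted p = 0.116). When replicate was blocked, as described below, both lines passed, with adjusted p of 0.000548 in 6-4 and 0.00592 in Nipponbare. The difference between the lines in that response, 0.78 ± 0.34 (SE), did not pass (limma adjusted p = 0.156), so the 2 responses are not shown to differ. The limma adjusted p of the mean response was 0.0832 without control replicate 1 and 0.0564 without control replicate 2, and at most 0.0288 without any other single array. On the 4 arrays of replicates 1 and 3 alone the rise was of like size, 2.02 ± 0.33 (SE), with an adjusted p of 0.144. The response in 6-4 lost its call without control replicate 1 or 2 (adjusted p = 0.241 and 0.162) and without P-deficient replicate 2 or 3 (adjusted p = 0.129 and 0.119).

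The probe that fell, AK107680, was matched to the Arabidopsis AP2 domain factor At2g20880. Its level over both lines was 9.79, 9.82 and 9.86 on the control arrays and 8.90, 9.02 and 9.05 on the P-deficient arrays. The replicates of each condition lay close together and the conditions did not overlap. AK107680 fell by 0.84 ± 0.13 (SE) on the log2 scale, to 0.559 of the control level, with a limma adjusted p of 0.0162. In 6-4 alone it fell by 1.05 ± 0.16 (SE, limma adjusted p = 0.00621), from 9.93 ± 0.08 to 8.93 ± 0.09 (SD, n = 3). In Nipponbare alone its change was -0.63 ± 0.16 (SE) and did not pass (limma adjusted p = 0.108), but passed with the replicate block (adjusted p = 0.0108). The difference between the lines' responses was -0.42 ± 0.13 (SE, limma adjusted p = 0.0717). The adjusted p of the mean response was 0.0937, 0.0865 and 0.0799 without control replicate 1, control replicate 2 and P-deficient replicate 1, and 0.209 on the arrays of replicates 1 and 3 alone. In 6-4 it was below 0.05 only without control replicate 3 (0.0372) and from 0.0549 to 0.0971 without each other array.

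**Figure D1:**
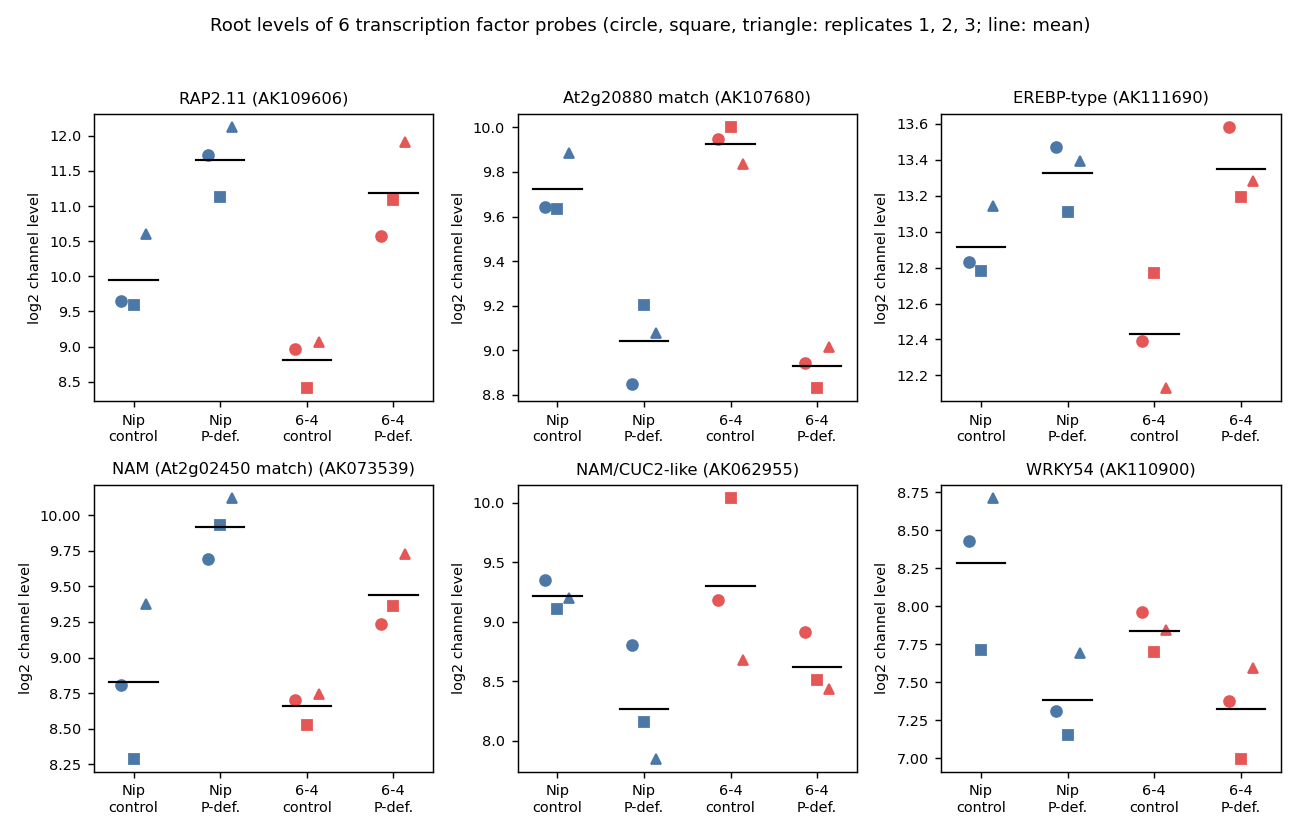
Each panel plots the log2 channel level of 1 probe (vertical axis, log2 intensity after normalization, with its own range) in the 3 replicates of each line and condition; circles, squares and triangles are replicates 1, 2 and 3 and the line is their mean. RAP2.11 is at 8.41 to 10.60 in the control samples and at 10.57 to 12.12 without phosphorus.

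Arrays with the same replicate number deviated together in level between the conditions, though some pairs of different numbers did so less strongly. Each P response was therefore also fitted with the replicate number as a block, a choice made from these same data. With the block, 7 of the 80 transcription factor probes passed, 4 higher and 3 lower without phosphorus, against 4.28% of all probes. By family these were 4 AP2 and EREBP probes, 2 NAC probes and 1 WRKY probe. RAP2.11 and AK107680 were both among them, with limma adjusted p of 0.000105 and 0.00493. Only 3 replicate pairs stand behind this block, and the numbers come from the labels, which do not say what a number shares. By the file headers, both arrays of replicate 3 were read with scanner software version 8.1 and all others with 7.1. A fit with the software version as a batch is thus contained in the replicate block. A probe that passed with both does not have 2 separate results.

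An EREBP-type factor of rice, AK111690, passed with the block and also with the software version as a batch (adjusted p = 0.034), but not without them. Its level was 12.61, 12.77 and 12.64 on the control arrays and 13.52, 13.15 and 13.33 on the P-deficient arrays, without overlap. The P response was 0.66 ± 0.14 (SE), with a limma adjusted p of 0.074 without and 0.0317 with the block. A probe matched to the Arabidopsis AP2 protein At4g23750, AK106517, had a P response of 0.56 ± 0.20 (SE), with adjusted p of 0.321 and 0.0313. AK106517 is named because it passed with the block, and its arrays overlapped, at 8.41, 8.52 and 8.997 in the control and 8.96, 9.16 and 9.48 without phosphorus.

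Neither of the 2 probes matched to osERF3, an ethylene response factor of rice, passed over both lines. AK069262 was at 11.34, 11.31 and 11.39 in the control and at 11.90, 11.66 and 11.92 without phosphorus, a P response of 0.48 ± 0.13 (SE) that did not pass (limma adjusted p = 0.172). AK111755 had a response of -0.27 ± 0.18 (SE, limma adjusted p = 0.682). With the replicate block AK069262 passed in each line alone, with 0.39 ± 0.10 (SE, adjusted p = 0.0321) in Nipponbare and 0.57 ± 0.10 (SE, adjusted p = 0.00691) in 6-4. These are fits to single channels, and over both lines, fitted to array means, AK069262 was not among the 7 probes called with the block. The lowest value of the family was that of AK060090, matched to AP2DCP, at -0.86 ± 0.27 (SE), with a limma adjusted p of 0.291. AK060090 had 2 spots marked as outliers by the scanner software and left out, so this value rests on 2 arrays per condition.

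Among NAC probes, AK073539 had the highest P response. It was matched to a NAM protein, At2g02450, and petunia NAM is known from the shoot meristem. Its level over both lines was 8.76, 8.41 and 9.06 in the control and 9.46, 9.65 and 9.92 without phosphorus. The conditions did not overlap, and the response was 0.94 ± 0.20 (SE), with a limma adjusted p of 0.0634 without and 0.00709 with the block. In Nipponbare the response was 1.15 ± 0.25 (SE, limma adjusted p = 0.0604) and in 6-4 0.72 ± 0.25 (SE, limma adjusted p = 0.188). The other 2 probes with that description, AK068393 and AK102902, had responses of 0.03 ± 0.15 and 0.07 ± 0.15 (SE), which did not pass.

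The lowest NAC value belonged to AK062955, matched to a NAM/CUC2-like protein, CUC2 being a gene of organ boundaries in Arabidopsis. Its level was 9.27, 9.57 and 8.94 in the control and 8.86, 8.33 and 8.14 without phosphorus. The response was -0.82 ± 0.22 (SE), with a limma adjusted p of 0.165 without and 0.0291 with the block. It was -0.85 ± 0.38 (SE) in Nipponbare and -0.79 ± 0.38 (SE) in 6-4. The petunia NH2 match AK099540 had a response of -0.33 ± 0.13 (SE, limma adjusted p = 0.383) and the NH11 match AK110684 one of -0.51 ± 0.21 (SE, limma adjusted p = 0.402). In 6-4 alone AK110684 had a response of -0.92 ± 0.22 (SE, limma adjusted p = 0.072), which passed with the block (adjusted p = 0.00381) and with the software version as a batch (0.0102). For the whole family of 22 the median response was 0.00, with 11 probes above 0.

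None of the 28 WRKY probes passed in any of the 3 P responses as fitted without a block or batch. Their responses over both lines ran from -0.71 to 0.37 with a median of 0.03. The lowest was that of AK110900, matched to WRKY54, which in Arabidopsis acts with salicylic acid signalling and leaf senescence. Its level was 8.20, 7.71 and 8.28 in the control and 7.35, 7.07 and 7.64 without phosphorus, a response of -0.71 ± 0.20 (SE), with a limma adjusted p of 0.19 without and 0.0132 with the block, and 0.0488 with the software version as a batch. The tobacco WRKY4 match AK102093 was at 9.496, 9.39 and 9.72 in the control and at 9.06, 8.96 and 9.12 without phosphorus, a response of -0.49 ± 0.14 (SE, limma adjusted p = 0.189). In each line alone AK102093 passed with the block, with adjusted p of 0.0404 in Nipponbare and 0.0114 in 6-4, and in 6-4 also with the software version as a batch (0.0295). The conditions did not overlap for either probe.

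WRKY6 is the member of the family that is best known for phosphate, since in Arabidopsis it represses the phosphate exporter gene PHO1. The probe matched to it, AK105509, was at 10.97, 10.70 and 10.63 in the control and at 10.99, 11.16 and 11.27 without phosphorus. Its response of 0.37 ± 0.15 (SE) did not pass (limma adjusted p = 0.392). The WRKY69 match AK060018 had a response of 0.23 ± 0.19 (SE, limma adjusted p = 0.767).

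**Figure D2:**
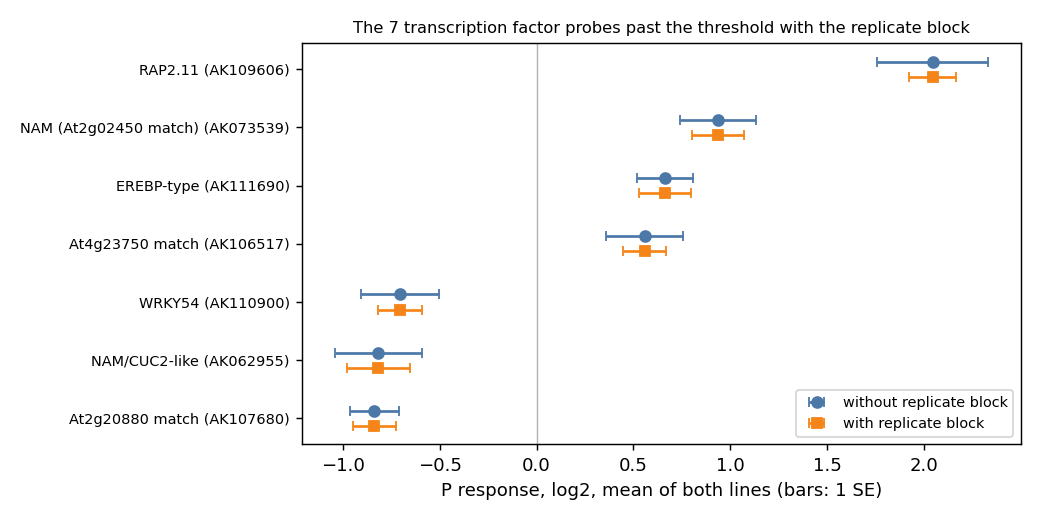
The horizontal axis is the P response on the log2 scale (P-deficient minus control, mean of both lines) of the 7 probes that passed with the replicate block, and bars are 1 SE. Each estimate is the same in both fits, and the SE of RAP2.11 is 0.29 without the block and 0.12 with it.

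Over the 80 probes the P response had a median of 0.02, against -0.01 over all kept probes, and 44 of 80 values were above 0. The AP2 and EREBP probes had a median of 0.03 and a range of -0.86 to 2.05. Of the 79 probes with a value on every array, 16 had conditions that did not overlap over the 3 arrays each, 8 higher and 8 lower without phosphorus. Of all probes, 16.6% had conditions apart in this way, so the share is near the background. With each line taken alone, 16 of 79 had conditions apart in Nipponbare, against 17.2% of all probes, and 16 of 79 in 6-4, against 16.6%. In Nipponbare alone no transcription factor probe passed limma's test, against 0.883% of all probes called (0.613% higher and 0.269% lower). At an unadjusted limma p under 0.05 were 13 of 79, against 3101 of 20054 over all probes. In 6-4 alone the 2 probes called were RAP2.11 and AK107680, 2.53% against 1.44% of all probes (1.11% higher and 0.329% lower). With the replicate block 10 of 79 passed in Nipponbare (12.1% of all probes) and 13 of 79 in 6-4 (14.8% of all probes), again near the background.

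**Figure D3:**
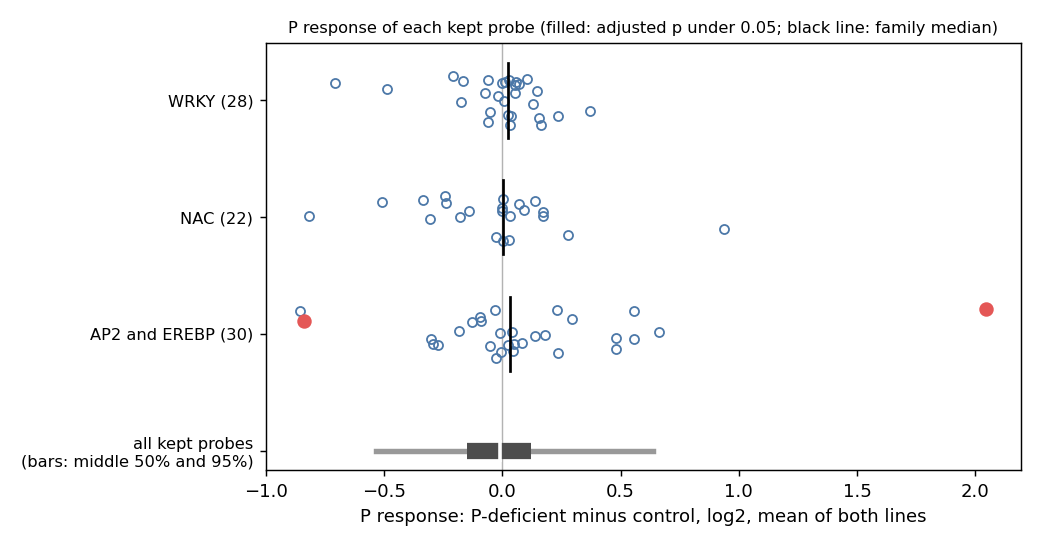
The horizontal axis is the P response of each kept probe on the log2 scale, with 1 point per probe in each family, the family median as a black line, and the middle 50% and 95% of all kept probes as bars. The filled points are RAP2.11 at 2.05 and AK107680 at -0.84.

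Probes that shared a description were compared next, since they may stand for different genes of a family. In 11 of the 18 shared descriptions the P responses of the probes lay on both sides of 0. Over all probes 9827 of 20531 responses were above 0, so mixed signs would be common in groups of unrelated probes too. No share for such groups was computed. The widest ranges were those of the NAM/CUC2-like match At4g28530, from -0.82 to 0.09 over 2 kept probes, and of the NAM match At2g02450. The 3 WRKY50 probes stayed between 0.06 and 0.13, and the 2 probes of tsh1, a rice EREBP-like protein, were both at -0.09.

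The second comparison asked which factors differed between the lines. Each array gives a line ratio, 6-4 minus Nipponbare on the log2 scale, and limma was fitted to the 6 ratios with a term for the dye. Averaged over both conditions, no transcription factor probe passed, against 0.926% of all probes called (0.263% higher and 0.663% lower in 6-4). At an unadjusted limma p under 0.05 were 13 of 80, against 3502 of 20528 over all probes. The median of the 80 values was -0.04, against 0.00 over all kept probes. Without control replicate 3 the count was 4, made up of AK101501, AK108745, AK108860 and AK073100. This is 5% of the 80, against 4.09% of all probes in that setting.

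RAP2.11 had the lowest mean line effect, -0.80 ± 0.16 (SE, limma adjusted p = 0.0828). Its ratio was -0.68, -1.18 and -1.54 on the control arrays and -1.16, -0.05 and -0.21 on the P-deficient arrays. All 6 ratios were below 0, and those of P-deficient replicates 2 and 3 were the closest to 0. With phosphorus the 6-4 level was lower by 1.19 ± 0.23 (SE, limma adjusted p = 0.0273), 0.437 of the Nipponbare level. Without phosphorus the difference was -0.41 ± 0.23 (SE, limma adjusted p = 0.272). The control difference lost its call without control replicate 2 (-1.43, adjusted p = 0.282) and without P-deficient replicate 3 (-1.22, adjusted p = 0.0668).

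In addition, 2 factors had a lower 6-4 level on all 6 arrays. The WRKY6 match AK105509 had ratios of -0.11, -0.10 and -0.51 in the control and -0.27, -0.67 and -0.18 without phosphorus, with a mean line effect of -0.31 ± 0.07 (SE, limma adjusted p = 0.104). A probe matched to RAP2.6, a factor that responds to abscisic acid and jasmonate in Arabidopsis, had ratios of -0.68, -0.11 and -0.23 in the control and -0.42, -0.79 and -0.005 without phosphorus. That probe, AK101501, had a mean line effect of -0.37 ± 0.08 (SE, limma adjusted p = 0.111). None of the 79 probes was higher in 6-4 on all 6 arrays, and the 3 lower ones compare with 5.4% of all probes that had 1 sign on all 6 arrays.

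The remaining WRKY, NAC and AP2 probes with the smallest p for the line had mean effects between -0.32 and 0.11 over both conditions. Among WRKY probes these were the WRKY71 match AK108745 at -0.26 ± 0.06 (SE, limma adjusted p = 0.119), the WRKY50 match AK109578 at -0.17 and the WRKY54 match AK110900 at -0.26. Among NAC probes they were AK071464 at -0.22, AK068776 at -0.21, AK073539 at -0.32 and AK102511 at 0.11. In the AP2 and EREBP family AK069262 was at -0.14 and AK105877 at -0.30. Of the 28 WRKY probes 7 had a mean line effect above 0, with a median of -0.10, while 13 of 22 NAC probes and 11 of 30 AP2 and EREBP probes were above 0. These counts carry no test.

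Within a condition more probes passed. With phosphorus 13 of the 80 passed, 4 higher and 9 lower in 6-4, 16.2% against 12.9% of all probes (6.74% higher and 6.19% lower). Without phosphorus 8 passed, 1 higher and 7 lower, 10% against 8.94% of all probes (4.32% higher and 4.62% lower). Some probes named above for their mean line effect were among the lower ones. These were AK071464 and AK108745 in the control, beside RAP2.11, and AK105509, AK068776 and AK073539 without phosphorus. The difference between the conditions, the line by P difference, passed for 16 of 80, 8 in each direction, 20% against 19.7% of all probes (9.4% and 10.3%). In 15 of 79 the line ratios of the conditions did not overlap, against 16.8% of all probes. Each of these shares is near the background of the array. The counts depended on single arrays: that of the control was 0 without control replicate 2 or P-deficient replicate 3, 1 without P-deficient replicate 1, 6 without control replicate 1 or P-deficient replicate 2, and 23 without control replicate 3. Of all probes, the control comparison called 0.00974% or 0.122%, 1.49%, 7.82% or 9.2%, and 20.7% in these settings, in that order. That of the P-deficient arrays was 0 without any 1 of the 3, 1 without control replicate 2, 13 without control replicate 1 and 20 without control replicate 3. Here the shares of all probes were 0.0292% to 0.0438%, 2.22%, 12.4% and 21.8%.

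The 16 probes with a line by P difference shared a pattern over the arrays. In 15 of the 16 the ratio farthest from 0 lay on replicate 2 in both conditions, and this was so in 11 of the other 64. The call was made from these same ratios. With the dye term, the fit gives replicate 2 more weight than each other array of its condition. Large ratios on replicate 2 are thus in part built into the selection, and the comparison with the other 64 is only a description. Over the 16 probes the median size of the ratio on replicate 2 was 0.72 in the control and 0.66 without phosphorus, but 0.10 on the other 4 arrays. Over the other 64 probes these medians were 0.18, 0.24 and 0.12. Well above background in all 12 channels were 9 of the 16, 56.2%, compared with 87.5% of the other 64. Without control replicate 2 none of the 80 passed, nor did any other probe of the array. Without P-deficient replicate 2 the count was 3 (AK102109, AK110625 and AK111414), 3.75% against 4.84% of all probes. Without P-deficient replicate 1 or 3 it was 8 or 6, 10% or 7.5% against 7.92% or 6.71% of all probes. Without control replicate 3 it was 29, 36.2% against 29.9% of all probes. Dye order, the bright negative controls of these 2 arrays and a line by P difference cannot be told apart there.

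The NAC probe AK068153, matched to petunia NH2, had the highest line by P difference. Its ratio was -0.38, -0.87 and 0.03 in the control and 0.17, 1.002 and 0.15 without phosphorus. The difference was 1.10 ± 0.14 (SE, limma adjusted p = 0.00632), and both values of replicate 2 were the farthest from 0. The NAC2 match AK102109 had the lowest, -0.85 ± 0.11 (SE, limma adjusted p = 0.00716), with ratios of 0.07, 1.04 and -0.12 in the control and 0.05, -0.77 and 0.12 without phosphorus. Over replicates 1 and 3 alone its mean ratio was -0.03 in the control and 0.08 without phosphorus. On those arrays the dye order changed with the condition, so dye and a line by P difference cannot be told apart in these means.

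AK106057 was the exception among the 16. It was matched to cip353, an AP2/ERF protein of potato. Its ratio was -0.49, -0.42 and -0.59 on the control arrays and 0.22, 0.55 and 0.15 on the P-deficient arrays. All 3 control ratios were below 0 and all 3 P-deficient ratios above 0. Those of replicates 1 and 3, where the dye order also changed with the condition, averaged -0.54 and 0.19. The level in Nipponbare was 7.84 ± 0.10 (SD, n = 3) in the control and 7.67 ± 0.02 (SD, n = 3) without phosphorus, and in 6-4 it was 7.34 ± 0.18 and 7.98 ± 0.23 (SD, n = 3 each). The line by P difference was 0.85 ± 0.13 (SE, limma adjusted p = 0.01). It did not pass without control replicate 2 (1.09, adjusted p = 0.0792) or P-deficient replicate 2 (0.61, adjusted p = 0.0944).

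Of the 16, AK064178, matched to petunia Nh1, and AK062612, matched to an ethylene response factor of Arabidopsis, also had opposite signs in the conditions on every array. The ratios of AK064178 were 0.30, 0.34 and 0.08 in the control and -0.12, -0.25 and -0.05 without phosphorus. Those of AK062612 were 0.11, 0.57 and 0.09 in the control and -0.21, -0.82 and -0.11 without phosphorus. In all, 7 of the 79 probes had every control array one way and every P-deficient array the other, against 6.48% of all probes.

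**Figure D4:**
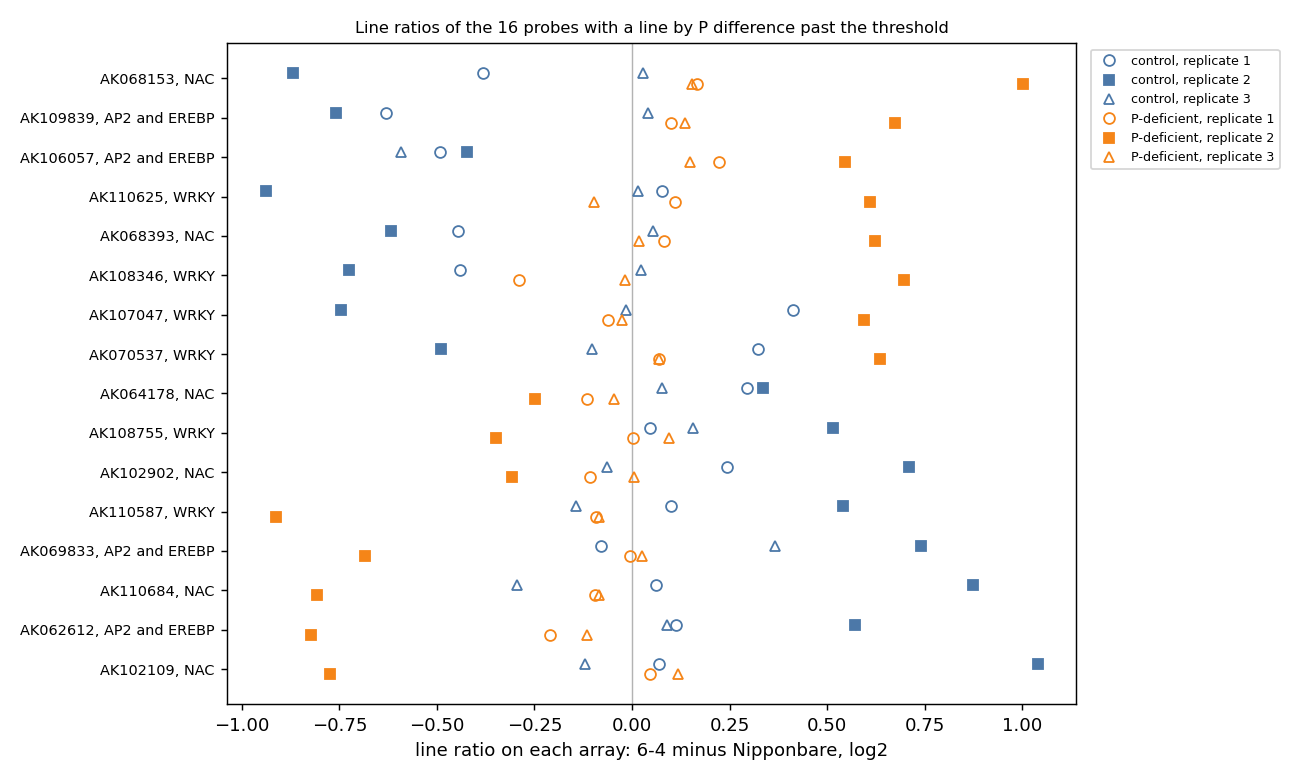
The horizontal axis is the line ratio on each array (6-4 minus Nipponbare, log2) of the 16 probes whose line by P difference passed, with control arrays in blue, P-deficient arrays in orange and replicate 2 as filled squares. For AK102109 the squares lie at 1.04 and -0.77 and the open symbols between -0.12 and 0.12.

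**Figure D5:**
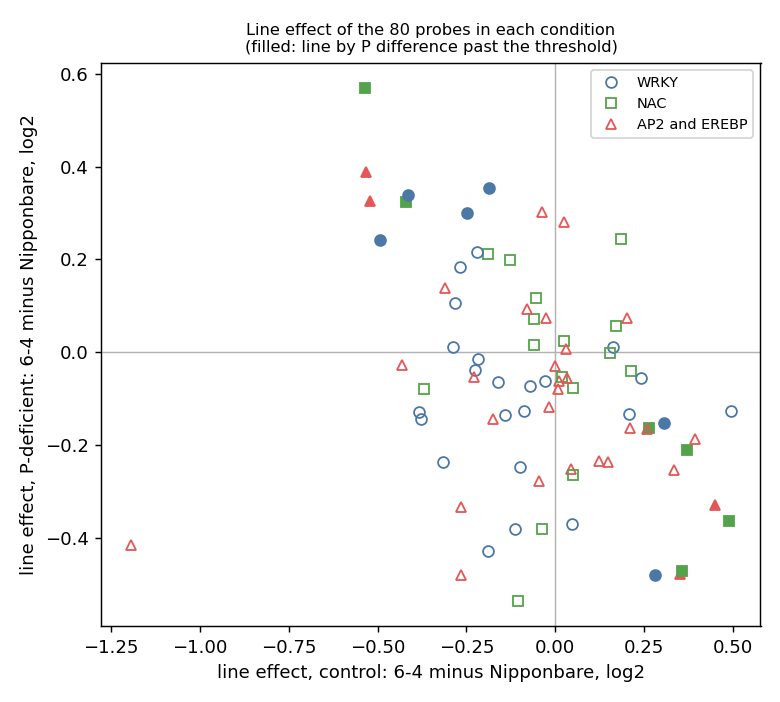
Each point is 1 of the 80 probes, with its fitted line effect (6-4 minus Nipponbare, log2) in the control on the horizontal axis and without phosphorus on the vertical axis. The 2 estimates of a probe share the fitted dye term; RAP2.11 lies at -1.19 and -0.41, and the filled symbols, the 16 probes with a line by P difference, lie in the corners of opposite sign.

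Probes of further pathways were taken by words in their descriptions and counted in the same fits. The phosphate starvation words took any phosphate transporter or ribonuclease, and the defence words any glucanase. The lists are thus not confined to those responses, and whether these factors act on the listed genes was not tested. Of 40 phosphate starvation probes, 10 rose without phosphorus and none fell, against 1.04% and 0.468% of all probes, and 7 were lower in 6-4 over both conditions, against 0.663% of all probes. A purple acid phosphatase match, AK110804, rose by 2.44 ± 0.16 (SE, limma adjusted p = 0.000377) and the monogalactosyldiacylglycerol synthase match AK064148, an enzyme of the lipids that replace phospholipids, by 2.51 ± 0.20 (SE, limma adjusted p = 0.00118). Of 22 probes of ethylene synthesis and signalling, upstream of the ethylene response factors, none passed for P by limma. At an unadjusted limma p under 0.05 was 1 of the 22, against 2255 of 20531 over all probes. Of 35 dehydration and cold probes 1 fell, 2.86% against 1.51% of all probes called in either direction. This was the RD22 match AK105947, with a P response of -2.42 ± 0.30 (SE, limma adjusted p = 0.00642). Of 122 defence probes 3 rose and 2 fell, 4.1% against 1.51% of all probes, among them a chitinase (AK111415) at 1.65 and a thaumatin-like protein (AK102970) at -1.54.

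Transcription factors of other families were counted as a further list. Of 244 such probes 2 rose and 1 fell without phosphorus, 1.23% against 1.51% of all probes. The 2 that rose were a MYB match, AK109620, with 1.19 ± 0.14 (SE, limma adjusted p = 0.00428), and the bZIP factor ABI5 match AK105312, with 1.24 ± 0.15 (SE, limma adjusted p = 0.00534).

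The 11 probes of other proteins were kept out of all counts of WRKY, NAC and AP2 factors above. These 11 named purple acid phosphatases (3 probes), the vesicle protein VAP27 (4 probes), the amino acid transporter LeAAP2 (2 probes), BRAP2 and SWAP2, and 10 of them were kept. The kept purple acid phosphatases among them are part of the 40 phosphate starvation probes counted above. One of them, the purple acid phosphatase PAP22 match AK073222, was at 11.27, 10.89 and 10.65 in the control and at 12.59, 12.63 and 12.12 without phosphorus. Purple acid phosphatases release phosphate from organic esters. AK073222 rose by 1.51 ± 0.20 (SE, limma adjusted p = 0.01005) and was lower in 6-4 by 0.51 ± 0.05 (SE, limma adjusted p = 0.0103) on all 6 arrays. A count of transcription factors made from the words alone would have included it.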

How the data were processed

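The study measured root RNA of 2 rice lines on 6 two-colour arrays. The deposited values are Agilent Feature Extraction scanner files with linear signal intensities per spot, which the authors read with versions 7.1 and 8.1, per the file headers (1 array is given as 8.1 in the submitters' processing notes and 7.1 in its header; the header was used). The deposited series table holds log10 ratios of 6-4 over Nipponbare, which match the scanner values within 0.005 on all 22575 spots. From the mean and background signals, limma 3.58.1 in R 4.3.3 applied normexp with an offset of 50, loess within arrays and Aquantile between arrays. Control spots and spots marked as outliers were left out. Line effects were fitted to array ratios with a dye term, P responses to array mean levels, and P responses within a line to single channels with an intraspot correlation of 0.785. P-values were adjusted over all kept probes in each of 7 comparisons.

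Members and lists were chosen with earlier results of these data known. Named probes are those past adjusted p 0.05 in any comparison and, in each family, the 4 with the smallest p for the mean P response and for the mean line effect, 34 in all, of which 23 passed somewhere. AK106517, AK111755, AK060090, AK108860, AK073100 and AK111414 were named after their values were seen. The rule's range of family levels was not used, since different probes' levels cannot be compared, and promoter motifs were not run here. No probe accession matched the RefSeq gene table, so no positions are given.

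Same-numbered arrays of the conditions deviated together in level (correlations 0.382, 0.299 and 0.63), so the numbers were taken to pair the P responses. Their line ratios deviated in opposite directions (-0.604, -0.751 and -0.371). Same-numbered arrays always had opposite dye orders, and the remaining pairs of opposite dye order were negative too (-0.471 and -0.136). Pairs of the same dye order were all positive (0.683, 0.544, 0.632 and 0.328). The signs of the ratio correlations thus follow the dye order, not the replicate number. Precision is limited by having 3 arrays a condition. Alternatives were other background corrections, normalizations and filters, the replicate block, software version as a batch, no dye term, and leaving out each array. Each step was tested on simulated data.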

Additional observations from a re-analysis of the deposited data

Results flagged for a closer look

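For 16 transcription factor probes the line effect differed between the conditions by limma's test of the difference (P-deficient minus control, log2, adjusted p under 0.05). Higher in 6-4 without phosphorus, relative to the control, were the NAC probes AK068153 (1.10) and AK068393 (0.74). The same direction was found for AK109839 (0.92), matched to the embryo factor BABY BOOM2, and AK106057 (0.85) of the AP2 and EREBP family. The WRKY matches that shared it were WRKY57 (AK110625, 0.75), WRKY35 (AK108346, 0.74), WRKY22 (AK107047, 0.55) and WRKY20 (AK070537, 0.54). Lower were the NAC probes AK102109 (-0.85), AK110684 (-0.83), AK102902 (-0.58) and AK064178 (-0.43). The ethylene response factor match AK062612 (-0.83) and the tsh1 match AK069833 (-0.78) were lower too. So were the WRKY matches wrky3 (AK110587, -0.76) and WRKY13 (AK108755, -0.46). The share of 20% is near the 19.7% of all probes, and without control replicate 2 none passed. With the background taken from the negative control spots 14 passed, 17.5% against 20.6% of all probes. The part of the dye order of replicate 2 in these values was not tested.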

How the results depend on the processing

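No probe that passed changed its sign in any setting fitted, but sizes varied. The line by P difference ran from -3.26 to -0.64 for AK062612 and from -3.49 to -0.42 for AK110587. On replicates 1 and 3 alone it was not fitted. In the mean ratios of those arrays it had the opposite sign for AK102109 (0.11), AK107047 (-0.24), AK110684 (0.03), AK110625 (-0.04) and AK070537 (-0.04). It kept its sign for the other probes called, and dye cannot be told apart from it there. Leaving out 1 array at a time gave 0 to 4 calls for the mean line effect, 0 to 23 for the line effect in the control, 0 to 20 without phosphorus, 0 to 29 for the line by P difference, 0 to 3 for the mean P response, 0 to 1 for Nipponbare and 0 to 2 for 6-4. Over all probes the counts were 21 to 840, 2 to 4243, 6 to 4478, 0 to 6147, 90 to 223, 20 to 85 and 70 to 206, in that order. With the replicate block the counts were 1 (RAP2.11), 6 and 1 for the mean, control and P-deficient line effects, and 7, 10 and 13 for the P response of both lines, Nipponbare and 6-4. Of all probes, 1.5%, 6.59% and 3.44%, and 4.28%, 12.1% and 14.8%, were called with the block. The software version as a batch gave 1 call for the mean line effect and 7, 5 and 9 for those P responses. The shares of all probes were 0.899%, and 3.63%, 4.48% and 5.22%. Arrays read with version 7.1 alone gave 2 for the mean line effect and 1 for the mean P response, with 1.14% and 1.1% of all probes called. The scanner software's log ratios gave 1, 0 and 8 calls for the control, P-deficient and line by P comparisons, and median centring 8, 0 and 8. Of all probes these settings called 3.43%, 0.901% and 9.67%, and 4.03%, 0.195% and 10.4%. Without a dye term the control, P-deficient and line by P counts all fell to 0, with 0.117%, 0.0633% and 0% of all probes called. Background from the negative control spots, chosen after seeing the data, gave 5 for the P-deficient line effect, but 12 for the control and 14 for the line by P difference. The shares of all probes were 7.24%, 13.3% and 20.6%. For the mean P response the scanner's processed signals gave 0 calls, 75th percentile scaling 1, and the arrays of replicates 1 and 3 alone, also chosen after seeing the data, 0. In these 3 settings 0.399%, 0.614% and 0.0731% of all probes were called. Quantile normalization gave 1 for Nipponbare, AK073539, with 0.913% of all probes called. The response of each line could not be fitted on replicates 1 and 3 alone. There the dyes of the lines change with the condition, so dye and the line by P difference coincide. Unless stated above, the cause was not tested. Few arrays and weak signal over background limit the dim probes most: 15 of the 80 were not well above background in every channel.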
